A study of Mus musculus with 5 samples.

Results

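The forkhead genes described here were the 41 autosomal protein-coding genes of the mouse whose symbol is Fox, a lower-case letter and a number, of 20807 autosomal protein-coding genes in the annotation. The rule that picks the members uses their symbols, and the family was taken up with earlier results of these data known. For each gene, peaks of the repressive histone mark H3K27me3 within 3000 bp of any annotated start site were taken from 4 peak lists, and the length they covered in this window, their whole width and their rank in the list were recorded.

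The lists came from H3K27me3 ChIP-seq of wild-type mouse dermal fibroblasts, with 2 libraries labelled E14 and 2 labelled E17 (embryonic days 14 and 17). By the paper, the mice were of C57BL/6 background. The labels name no engineered allele and no treatment for any of the 4 libraries, and the cells were grown in culture before fixation, so they stand for cultured dermal cells rather than for skin as taken. The paper gives the stages as E14.5 and E18.5, while the labels are used here. No source used here says whether the 2 libraries of a stage came from separate litters, so a p-value measures only the spread between these libraries.

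Forkhead proteins bind DNA through a winged-helix domain, and many of them specify cell types during development, while others are present in most cells and act in growth, metabolism and the cell cycle. H3K27me3 is written by the Polycomb repressive complex and often lies in broad blocks over developmental regulators that a cell type does not use. In skin, members of the family are known from the mesenchyme, from vessels and from the hair follicle epithelium. A gene without a peak may still carry the mark at a level too low for its list to record.

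The sequence just before the start of 7 members is shown first, because the results turn on whether peaks cover or skip this stretch. Each is the 250 bases before the annotated 5′ end in GRCm38, read 5′ to 3′ on the strand of the gene from the RefSeq genome sequence of that build, with every CpG in capitals. Foxf1, Foxc1 and Foxd2 were marked on both sides of this stretch, which lay outside the peaks in all 4 lists.
Foxf1 (chr8:121084136-121084385, plus strand): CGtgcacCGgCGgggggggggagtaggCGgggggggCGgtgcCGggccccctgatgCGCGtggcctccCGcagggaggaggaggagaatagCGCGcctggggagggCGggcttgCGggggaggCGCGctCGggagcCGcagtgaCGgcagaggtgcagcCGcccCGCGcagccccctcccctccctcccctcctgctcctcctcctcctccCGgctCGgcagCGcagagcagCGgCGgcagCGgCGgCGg
Foxc1 (chr13:31806383-31806632, plus strand): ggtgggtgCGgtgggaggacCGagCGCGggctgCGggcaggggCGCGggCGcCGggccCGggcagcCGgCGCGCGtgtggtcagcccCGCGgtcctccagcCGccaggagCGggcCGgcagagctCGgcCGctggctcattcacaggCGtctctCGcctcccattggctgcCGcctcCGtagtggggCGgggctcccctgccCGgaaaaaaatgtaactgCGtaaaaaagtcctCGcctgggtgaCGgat
Foxd2 (chr4:114908874-114909123, minus strand): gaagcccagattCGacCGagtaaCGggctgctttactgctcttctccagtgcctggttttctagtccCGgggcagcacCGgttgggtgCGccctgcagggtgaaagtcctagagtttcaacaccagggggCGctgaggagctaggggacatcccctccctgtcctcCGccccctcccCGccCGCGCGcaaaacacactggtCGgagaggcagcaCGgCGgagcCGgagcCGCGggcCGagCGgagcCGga
In contrast, the same stretch of Foxd3 and Foxl2 lay inside a peak in all 4 lists.
Foxd3 (chr4:99656049-99656298, plus strand): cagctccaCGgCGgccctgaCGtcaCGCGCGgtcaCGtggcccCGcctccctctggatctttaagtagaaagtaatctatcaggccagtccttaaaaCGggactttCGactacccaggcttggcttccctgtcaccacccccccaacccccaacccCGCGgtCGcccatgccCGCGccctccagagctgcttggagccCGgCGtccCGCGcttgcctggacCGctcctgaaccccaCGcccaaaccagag
Foxl2 (chr9:98955038-98955287, plus strand): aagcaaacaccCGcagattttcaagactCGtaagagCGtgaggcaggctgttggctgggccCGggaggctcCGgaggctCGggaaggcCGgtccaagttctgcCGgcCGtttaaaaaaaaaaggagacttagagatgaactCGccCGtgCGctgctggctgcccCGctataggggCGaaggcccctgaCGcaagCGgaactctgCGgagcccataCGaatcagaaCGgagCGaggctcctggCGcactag
Foxo1 is shown because its peaks ended upstream of this stretch, and Foxn1 because it had no peak in any list.
Foxo1 (chr3:52268086-52268335, plus strand): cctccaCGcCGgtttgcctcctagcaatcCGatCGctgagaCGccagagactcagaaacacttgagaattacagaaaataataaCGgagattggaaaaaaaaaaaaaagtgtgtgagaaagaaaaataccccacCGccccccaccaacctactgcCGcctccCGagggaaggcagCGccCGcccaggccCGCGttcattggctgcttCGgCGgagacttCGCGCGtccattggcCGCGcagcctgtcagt
Foxn1 (chr11:78386559-78386808, minus strand): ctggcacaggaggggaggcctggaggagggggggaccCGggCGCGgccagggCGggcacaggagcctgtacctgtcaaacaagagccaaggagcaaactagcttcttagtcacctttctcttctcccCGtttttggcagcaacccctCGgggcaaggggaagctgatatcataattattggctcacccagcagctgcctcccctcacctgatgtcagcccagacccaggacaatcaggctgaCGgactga
These windows held 29 CpGs at Foxf1, 30 at Foxc1 and 21 at each of Foxd2, Foxd3 and Foxl2. Over the 17 members whose start lay inside a peak in all 4 lists, the median was 10.0 and the highest 22, so Foxd3 and Foxl2 stand near the top of the covered genes and the 3 skipped windows at or above them. Foxo1 had 20 and Foxn1 had 7. Among members whose start lay in a gap between peaks in some lists only, Foxf2 had 21, Foxp2 15 and Foxc2 8.

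The E14 lists held 21546 and 16574 peaks and the E17 lists 10429 and 7107 peaks in replicates 1 and 2. Sequencing depth is unknown, since only peaks and not reads were at hand. Of 10 dermal fibroblast markers, among them Col1a1, Pdgfra and Twist2, 10 were free of peaks near their start sites in every list. Of the markers of other cell types, 4 of 6 keratinocyte genes, 3 of 4 melanocyte genes and 3 of 4 endothelial genes also had none, beside 73.4% of all autosomal protein-coding genes. The keratinocyte genes Cdh1 and Epcam, Sox10, Kdr, and the muscle genes Myod1 and Des had a peak in all 4 lists, and Myf5 had one in both E14 lists only. A mark on a marker gene does not measure its expression, and the share of other cells in the cultures was not tested.

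Most forkhead genes carried the mark at both stages. A peak lay near a start site in 28 and 27 members in the E14 libraries and in 27 and 25 members in the E17 libraries. The mean was 27.5 ± 0.707 genes at E14 and 26.0 ± 1.41 at E17 (SD, n = 2), a difference of -1.5 genes (exact permutation test, two-sided, p = 0.667), and the ranges of the stages overlapped at 27. With 2 libraries against 2, the smallest p this test allows is 0.333. In both E14 libraries 27 of 41 members (65.9%) had a peak, beside 20.2% of all autosomal protein-coding genes, and in both E17 libraries 25 of 41 (61.0%), beside 12.7%. No library had a peak at 13 members (31.7%), compared with 73.4% of all genes.

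Of the 27 members with a peak in both E14 libraries, 25 (92.6%) had a peak in all 4, beside 62.3% of the 4197 genes marked in both E14 libraries. None of the 27 lacked a peak in both E17 libraries, whereas 23.4% of the 4197 genes did. Among Sox genes, another family of developmental transcription factors, 12 of 13 had a peak in all 4 libraries, and among Pax and Lhx genes 9 of 9 and 8 of 8 did. The forkhead share was thus close to that of these families, and the differences were not tested.

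The peaks at forkhead genes became narrower while staying in the lists. Their whole width summed over the members was 468 and 383 kb at E14 and 320 and 295 kb at E17, with no overlap between the stages. The mean fell from 426 ± 60.2 kb to 308 ± 18.0 kb (SD, n = 2), a change of -27.7% (exact permutation test, two-sided, p = 0.333). Summed over all autosomal protein-coding genes, where a peak near several genes is counted for each, the width changed by -53.3%. Of the 27 members, 26 (96.3%) had a smaller width in both E17 libraries than in both E14 libraries, beside 88.6% of all genes marked at E14. The direction of change was thus that of the other marked genes. In size, the median decrease over the members with a peak in all 4 libraries was 30.2%, compared with 45.5% over the 2613 such genes. The median decrease was 40.9% for Sox, 32.8% for Pax and 13.8% for Lhx genes, so the forkhead value lay within the range of these families. Without E14 replicate 1, which had the widest peaks, the median decrease was 19.6% for forkhead genes and 35.2% for all genes.

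The length of the lists moved with the stage. With the 7107 top peaks of each list by q-value, the summed width of the forkhead peaks changed by -27.5% (exact permutation test, two-sided, p = 0.333), and 26 of 27 members were again narrower in both E17 libraries, beside 85.8% of 3057 genes. The part of sequencing depth in these differences was not tested.

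Within the 3000 bp windows the decrease was smaller. The covered length summed to 147766 and 137414 bp at E14 and to 125372 and 115548 bp at E17, a change of -15.5% (exact permutation test, two-sided, p = 0.333). In the windows of all genes the change was -46.1%. The covered length was lower in both E17 libraries for 15 of 27 members (55.6%), beside 83.9% of all genes. In 6 members, Foxa2, Foxb1, Foxb2, Foxd3, Foxe1 and Foxl2, the whole window was covered in every list, so no decrease could appear there.

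**Figure D1:**
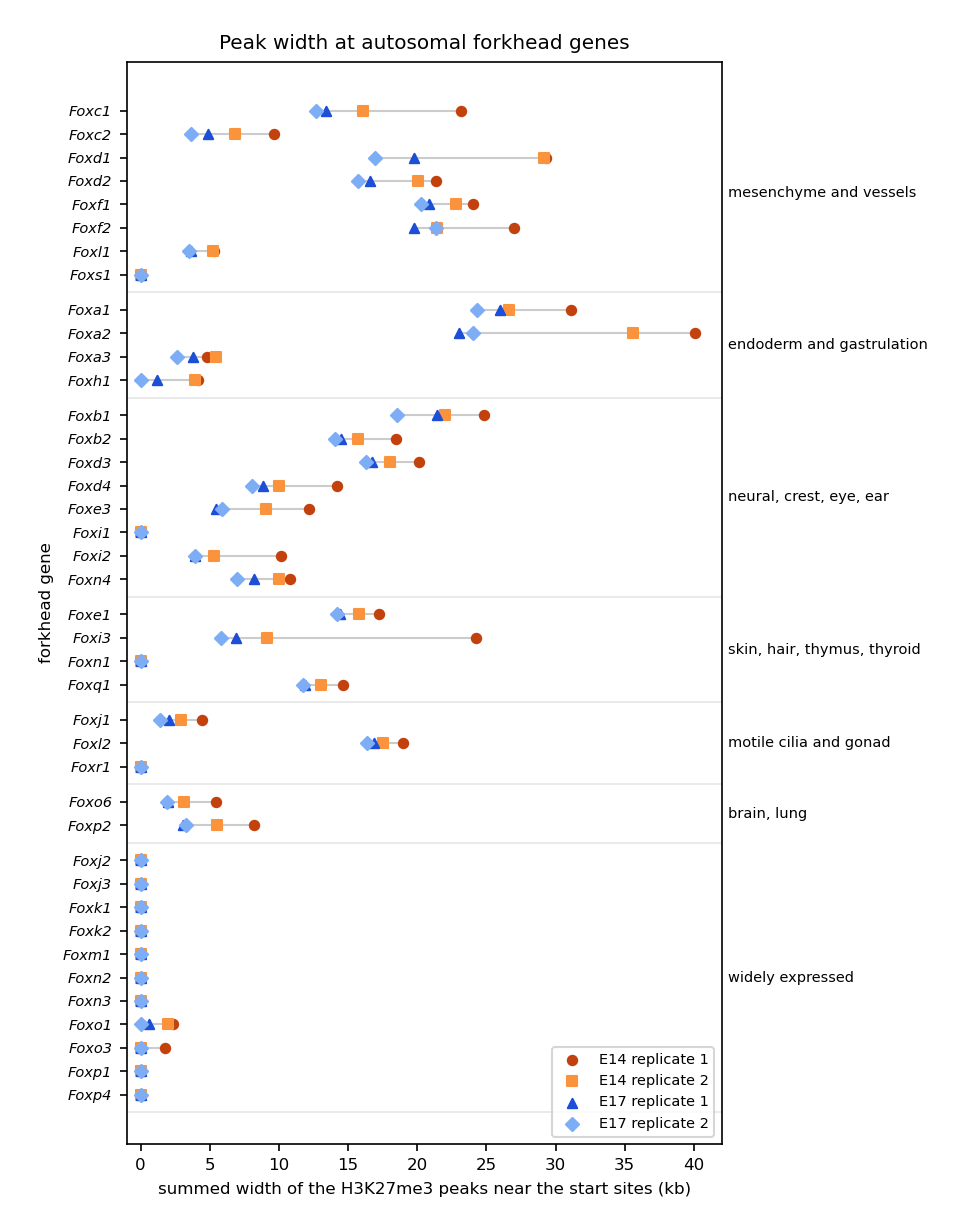
Summed width in kb of the peaks near the start sites of 40 of the 41 forkhead genes, with 1 symbol per library, joined by a grey line and grouped by role (right). E14 symbols lie to the right of E17 symbols for the 26 genes shown that were marked in both E14 libraries. Of 11 widely expressed members, 9 lie at 0 in every library, beside 73.4% of all autosomal protein-coding genes without a peak in any list. The roles are background knowledge set with earlier results of these data known.

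Forkhead peaks were wide and ranked near the top of each list. The median width over the 25 members with a peak in all 4 libraries was 18500 and 15700 bp at E14 and 13400 and 12700 bp at E17. For all 2613 genes with a peak in every library it was 6460, 4800, 3350 and 2540 bp. A single peak of at least 10000 bp lay at 19, 13, 13 and 12 of the 25 members in the lists of E14 replicates 1 and 2 and E17 replicates 1 and 2. In all 4 lists this held for 12 members (48.0%), compared with 6.58% of all genes. Such a peak was also present at 8 of 8 Lhx genes in each E14 list and at 7 in each E17 list, so wide peaks were not particular to forkhead genes.

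The rank of a peak was given as the percentile of its fold enrichment within its own list, since fold enrichment cannot be compared between lists. The median over the 25 members was 99.2 and 98.7 at E14 and 97.3 and 96.0 at E17, a change of -2.31 percentile points (exact permutation test, two-sided, p = 0.333). For all genes it was 93.3, 90.8, 84.3 and 74.9. A list that holds fewer weak peaks gives a lower percentile to a peak of unchanged order, and the E17 lists were shorter. Ranked anew among the 7107 top peaks of each list, a setting chosen after seeing the data, the forkhead medians were 97.7 and 96.9 at E14 and 96.1 and 96.0 at E17, a change of -1.27 points (exact permutation test, two-sided, p = 0.333). For all 2399 genes with a peak in every one of these lists, they were 81.9, 80.4, 79.2 and 77.7. Percentiles of single members below are from the whole lists unless stated and are compared between stages only with this limit.

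Peaks reached a median of 7940 and 6500 bp before the start at E14 and 3600 and 4030 bp at E17. After the start the reach was 9060 and 6680 bp at E14 and 6040 and 6240 bp at E17. The reach was shorter in both E17 libraries for 21 of 25 members (84.0%) upstream, beside 63.8% of the 2613 genes with a peak in every list, and for 19 of 25 (76.0%) downstream, beside 69.0%. Downstream, the median of E14 replicate 2 lay close to those of the E17 libraries, so the size of that difference rests on E14 replicate 1. At 5000 bp upstream, 70.4%, 55.6%, 48.1% and 44.4% of the 27 members lay inside a peak in E14 replicates 1 and 2 and E17 replicates 1 and 2. For all genes marked at E14 the shares were 23.2%, 15.1%, 9.82% and 6.91%. At the start itself the shares were 81.5%, 70.4%, 66.7% and 63.0% for forkhead genes and 56.2%, 49.4%, 36.5% and 30.3% for all genes.

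**Figure D2:**
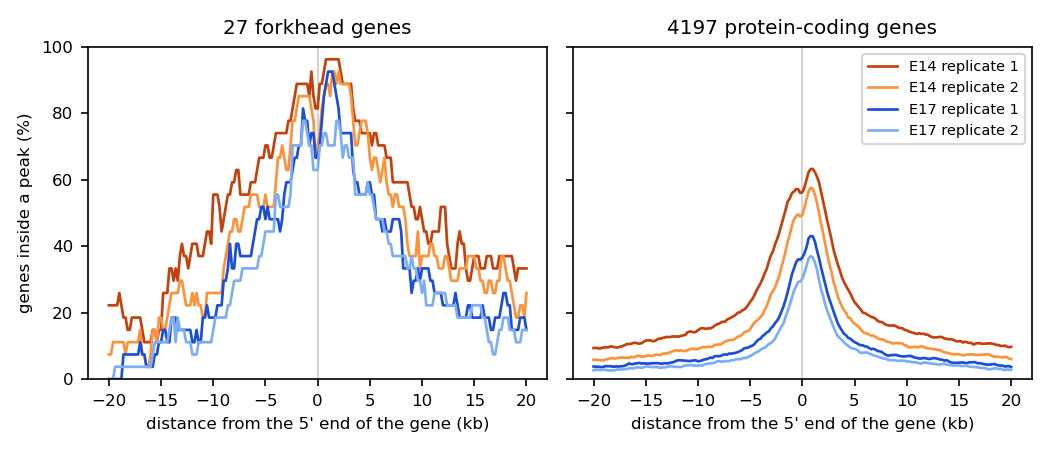
Share of genes inside a peak (vertical axis, percent) by distance from the 5′ end of the gene in kb, for the 27 forkhead genes (left) and all 4197 genes (right) with a peak in both E14 libraries, with 1 line per library. Forkhead genes stay covered farther from the start, with 70.4% to 44.4% inside a peak at 5000 bp upstream against 23.2% to 6.91% of all genes, and their coverage dips near the start.

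Members that pattern mesenchyme and vessels were marked in 7 of 8 cases, with a median width of 23200 and 20100 bp at E14 and 16600 and 15700 bp at E17. Foxf1, a hedgehog target of lung and gut mesenchyme, had peaks of 24036 and 22772 bp at E14 and 20872 and 20240 bp at E17. Its decrease of 12.2% was the smallest of these 7 genes, and the stages did not overlap. Foxf2, which acts in the mesenchyme of palate and gut, had 26966 and 21398 bp at E14 and 19739 and 21355 bp at E17. Here E17 replicate 2 was only just below E14 replicate 2, and the decrease of 15.0% was 3.98% without E14 replicate 1.

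Foxc1, a regulator of eye and skull mesenchyme, had peaks of 23179 and 16081 bp at E14 and 13395 and 12672 bp at E17. Its decrease of 33.6% was 19.0% without E14 replicate 1, which stood apart from the other 3 libraries. Foxc2, needed for lymphatic vessels, had narrower peaks of 9617 and 6795 bp at E14 and 4855 and 3622 bp at E17, with the greatest decrease of the group at 48.3%. Foxd1, which marks stromal progenitors of the kidney, had 29307 and 29182 bp at E14 and 19769 and 16963 bp at E17. Its rank was high in every list. The percentile was 99.6 and 98.7 at E14 and 99.5 in E17 replicate 1, and in E17 replicate 2 the highest peak, 2949 bp wide and over the start, stood higher still.

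Foxd2 had 21377 and 20075 bp at E14 and 16607 and 15692 bp at E17. Foxl1, of the mesenchyme beneath the gut epithelium, had 5337 and 5220 bp at E14 and 3657 and 3508 bp at E17. Its replicates lay close together and its stages apart. Foxs1, expressed in pericytes, was the exception of the group, with no peak near its start in any list. The nearest peak lay 7383 and 7887 bp away at E14 and 8033 and 8715 bp away at E17.

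Endoderm regulators carried some of the widest peaks. Foxa2, a pioneer factor of endoderm and floor plate, had peaks of 40075 and 35637 bp at E14 and 23040 and 24039 bp at E17. The decrease was 37.8%, and the peak still filled the window of 7506 bp around its 4 start sites in every list. Foxa1, its close relative, had 31154 and 26658 bp at E14 and 25955 and 24296 bp at E17, a decrease of 13.1%, or 5.75% without E14 replicate 1. Foxa3, a liver member, had 4801 and 5462 bp at E14 and 3807 and 2631 bp at E17, and its percentile with lists of equal number was 90.8 and 90.5 at E14 and 81.5 and 72.3 at E17.

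Foxh1, the DNA-binding partner of Smad proteins in Nodal signalling, was marked in 3 of 4 libraries. Peaks covered 3902 and 3969 bp of its window at E14, 1190 bp in E17 replicate 1 and none of it in E17 replicate 2. At E14 its percentile was 91.9 and 93.7, and in E17 replicate 1 it was 57.6. It thus had a peak in both E14 lists and in 1 of the E17 lists, and its start lay inside the peak at E14 only.

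Neural, neural crest, eye and ear regulators were marked in 8 of 9 cases, with a median width of 16400 and 12900 bp at E14 and 11700 and 11100 bp at E17. Foxd3, a neural crest factor, had 20134 and 18063 bp at E14 and 16700 and 16328 bp at E17, and its percentile lay between 99.8 and 99.9 in the 4 lists.

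Foxb1, of the hypothalamus and spinal cord, had 24833 and 22013 bp at E14 and 21429 and 18574 bp at E17, and Foxb2 had 18499 and 15742 bp at E14 and 14526 and 14071 bp at E17. Foxe3, the lens member, had 12164 and 9062 bp at E14 and 5429 and 5893 bp at E17, a decrease of 46.7%. Foxi2 had 10140 and 5273 bp at E14 and 3959 and 3935 bp at E17, and its decrease of 48.8%, the largest of the group, was 25.1% without E14 replicate 1. Foxd4 had 14220 and 9977 bp at E14 and 8861 and 8036 bp at E17. Foxn4, which acts in retinal progenitors, had 10809 and 9978 bp at E14 and 8229 and 6946 bp at E17, and 3 of its 4 start sites lay near a peak in every list. Foxi1, of the inner ear and the kidney, had no peak within its window in any list, and the closest peak lay 82173 bp from its start.

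Of the 4 members known from skin, hair, thymus or thyroid epithelium, 3 were marked. Foxe1, of thyroid and hair follicle, had 17255 and 15804 bp at E14 and 14436 and 14228 bp at E17. Foxq1, the gene mutated in satin mice with altered hair, had 14669 and 13062 bp at E14 and 11878 and 11744 bp at E17. Its percentile was 97.9 and 95.8 at E14 and 93.4 and 84.1 at E17, and with lists of equal number it was 93.7, 90.2, 90.3 and 84.1.

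Foxi3, expressed in hair placodes, had 24264 and 9148 bp at E14 and 6922 and 5844 bp at E17. Its decrease of 61.8% was the largest among the 25 members with a peak in every list, and it was 30.2% without E14 replicate 1. The SD at E14 was 10700 bp around a mean of 16700 bp (n = 2), and within the window its coverage was complete in 3 of 4 lists. Foxn1, the nude gene of hair and thymus epithelium, had no peak near its start, and the nearest lay 13754, 13864, 14191 and 34693 bp away in the 4 lists.

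Foxl2, which maintains ovarian granulosa cells, had peaks of 18982 and 17538 bp at E14 and 16882 and 16399 bp at E17, and its decrease of 8.87%, the smallest of the 25, was 5.12% without E14 replicate 1. Foxj1, the regulator of motile cilia, had 4405 and 2897 bp at E14 and 2051 and 1416 bp at E17. These were among the narrowest forkhead peaks, and the start lay inside the peak at E14 and 58 and 43 bp before it at E17. Foxr1 had no peak in its window in any list.

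Foxp2, known for its part in speech and motor circuits, had 8176 and 5546 bp at E14 and 3072 and 3295 bp at E17. Of its 16 annotated start sites, 6 lay near a peak in each list. Foxo6, the neuronal FoxO member, had 5439 and 3162 bp at E14 and 1989 and 1905 bp at E17. Both decreased by more than the forkhead median, by 53.6% and 54.7%. With lists of equal number, the percentile of Foxp2 was 90.6 and 91.5 at E14 and 73.7 and 75.3 at E17. That of Foxo6 was 91.6 and 92.7 at E14 and 86.9 and 72.1 at E17, and for both genes the stages did not overlap. The medians over all 2399 genes also did not overlap, at 81.9 and 80.4 at E14 and 79.2 and 77.7 at E17. The share of single genes without overlap was not counted.

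Most of the 13 unmarked members were widely expressed genes. Of 11 such genes, 0 had a peak in all 4 libraries, beside 2613 of all 20807 autosomal protein-coding genes. No list had a peak at 9 of the 11, beside 73.4% of all genes. The counts are small and were not set apart from that background. The 9 were Foxj2, Foxj3, Foxk1, Foxk2, Foxm1 (a regulator of mitosis), Foxn2, Foxn3, Foxp1 and Foxp4. The grouping by role is background knowledge set with earlier results of these data known, so the split is a description. It places Foxp2 and Foxo6, both marked in every list, apart from the FoxP and FoxO members called widely expressed. Expression was not examined here. Over the 13 unmarked members the median distance from the start to the closest peak of any list was 26100 bp. Foxn3 had a peak 3903 bp away in E14 replicate 1, and Foxp1 had a peak inside its gene body in E17 replicate 1.

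Foxo1 and Foxo3, effectors of insulin and growth factor signalling, were marked in part. At Foxo1, peaks covered 2343 and 1957 bp at E14, 613 bp in E17 replicate 1 and none in E17 replicate 2. They lay wholly before the start, and their edge nearest to it was 532 and 509 bp away at E14 and 947 bp in E17 replicate 1. The percentile of Foxo1 was 88.8 and 66.9 at E14 and 18.4 in E17 replicate 1, below that of every member with a peak in all 4 lists. At Foxo3, E14 replicate 1 had a peak covering 957 bp and the other 3 lists had none in the window. That peak ran from 3827 to 2044 bp before the start, across the edge of the window. With a window of 10000 bp, E14 replicate 2 and E17 replicate 1 also had a peak.

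Among the 25 members with a peak in every list, coverage at the start itself took several forms. The start lay inside a peak in all 4 lists in 17 of them (68.0%), beside 44.6% of all 2613 genes. In 3 members (12.0%), Foxc1, Foxd2 and Foxf1, the start lay in a gap with a peak on each side in all 4 lists, beside 2.18% of all genes. The other 5, Foxc2, Foxf2, Foxj1, Foxo6 and Foxp2, were not of 1 kind across the lists or had a peak on the downstream side alone. The gaps were noticed in these data before they were counted, and 3 genes are too few to set the share apart.

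The gap at Foxf1 was 969 and 1053 bp wide at E14 and 1216 and 1201 bp at E17. At Foxc1 it was 1091 and 1021 bp at E14 and 1259 and 1153 bp at E17. At Foxd2 it was 888 and 1116 bp at E14 and 1745 and 1566 bp at E17. In each of these genes the gap was wider in both E17 libraries than in both E14 libraries. The share with a wider gap at E17 was not counted among all 57 genes with such a gap in every list. Whole peak width was smaller in both E17 libraries at 88.6% of all genes marked in both E14 libraries. The widening is thus not read as a trait of forkhead genes. At Foxc2 the start was covered in E14 replicate 1 and lay in gaps of 951, 1098 and 2183 bp in the other 3 lists. At Foxf2 gaps of 681 and 776 bp were present in replicate 2 of each stage and absent from replicate 1 of each stage. All 5 of these genes belong to the mesenchyme and vessel group, and Foxp2 was the only other marked member with such a gap in any list.

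The gaps were richer in G and C than the 1000 bp before them, but not always than the 1000 bp after them. At Foxf1 the gap held 75.7% GC in E14 replicate 1 and 73.1% in E17 replicate 2, compared with 63.2% and 61.9% in the 1000 bp before it. At Foxc1 the values were 69.1% in the gap and 52.0% before it in E14 replicate 1, and 69.6% after it. At Foxd2 they were 73.1%, 54.1% and 69.9% in E14 replicate 1. In the E17 lists the Foxd2 gap held 63.6% and 65.6%, below the 70.7% after it in both. At Foxc1 the gap was below the stretch after it in all 4 lists, with 67.5% against 72.2% in E17 replicate 1. The gaps thus differed in composition from the upstream side more than from the downstream side at Foxc1 and Foxd2. Within 500 bp of the start, GC was 72.7% at Foxf1, 71.7% at Foxd2 and 65.5% at Foxc1. Over the 17 members covered in all 4 lists the median was 59.9% and the highest values were 68.3% at Foxd3 and 66.7% at Foxl2. Foxf1 and Foxd2 thus lay above every covered member and Foxc1 within their range. Of the members with a gap in some lists only, Foxf2 had 70.0%, Foxp2 61.9% and Foxc2 55.7%, the last below the median of the covered members. The composition of all genes with such a gap was not examined. Whether GC-rich fragments were lost during library preparation was not tested.

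Other annotated genes started on the opposite strand within 3000 bp before the start in 9 of the 25 members (36.0%), beside 14.1% of the 2613 genes. Fendrr started 1276 bp from Foxf1 and Foxd2os 384 bp from Foxd2, and both genes had the gap. Foxl2os started 490 bp from Foxl2, which was covered throughout, so a neighbouring start did not go with a gap at each gene. Fendrr, Foxd2os and Foxl2os are non-coding and were not members, and a peak lay close to the start of each in all 4 lists.

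Several members lie side by side. Foxf1, Foxc2 and Foxl1 span 46.3 kb on chromosome 8 (chr8:121084386-121130644), and peaks covered 52.5% and 45.1% of it at E14 and 36.6% and 32.6% at E17. Foxq1, Foxf2 and Foxc1 span 256 kb on chromosome 13 (chr13:31556134-31812476), with 27.7% and 22.6% covered at E14 and 17.3% and 17.5% at E17. Foxd2 and Foxe3 lie within 19.7 kb on chromosome 4 (chr4:114906282-114926013), with 88.5% and 81.3% covered at E14 and 62.9% and 58.0% at E17. In each cluster both E17 libraries had less coverage than both E14 libraries. The length covered by all peaks of a list was likewise lower in both E17 libraries than in both E14 libraries. Summed over all autosomal protein-coding genes, the whole peak width changed by -53.3%. The lower coverage is thus not read as a trait of the clusters. No peak of any list lay near the start sites of 2 members, so neighbours were not counted from 1 shared peak.

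**Figure D3:**
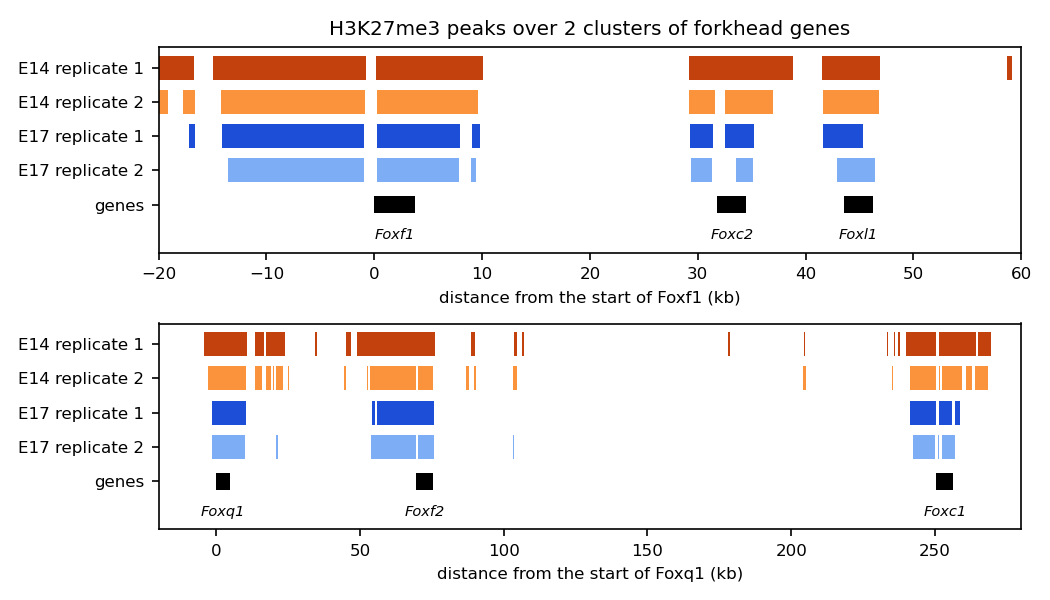
Peaks of each library over the clusters of Foxf1, Foxc2 and Foxl1 (top) and of Foxq1, Foxf2 and Foxc1 (bottom), as distance in kb from the start of the first gene, with the genes in black. Peaks sit as separate blocks over each gene in all 4 lists, and short peaks between the genes of the lower cluster are mostly present at E14.

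The marked and unmarked members differed in gene structure. The 25 members with a peak in every list had a median gene length of 4093 bp and a median of 1 start site, and the 13 unmarked members 49823 bp and 3 start sites. All transcripts had a single exon in 12 of the 25 (48.0%), among them Foxc1, Foxd3 and Foxl2, and in 1 of the 13 (7.69%), Foxs1. Among all genes, the shares were 4.78% of those with a peak in every list and 6.12% of those with none. A gene with more start sites can have a longer window, which gives more room for a peak. The number of start sites ranged from 1 to 22 over the unmarked members and from 1 to 16 over the marked ones. The unmarked members were grouped by having no peak, and the part of window length was not tested.

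In CpG content the marked and unmarked members overlapped. Within 500 bp of the start, the marked members had a median of 7.19 CpGs per 100 bp (range 1.3 to 12.8) and the unmarked ones 8.59 (range 0.899 to 14.9), compared with 4.3 for all genes. Foxk2 had the highest value at 14.9 and no peak, while Foxq1, with 1.3, had wide peaks. Among genes whose CpG number was at least 0.6 of that expected from their C and G content, 62.1% of 29 forkhead genes had a peak in every list, beside 14.8% of 9822 genes. Among those under 0.6 the shares were 58.3% of 12 forkhead genes and 10.5% of 10985 genes. The forkhead binding motif TGTTTAC, searched on both strands (GTAAACA on the other), was present in 3.71% of 31396 RefSeq promoters of autosomal genes, which run from 250 bases before to 50 after a start. It was present in 1 of 30 such promoters of forkhead genes, that of Foxa1.

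**Figure D4:**
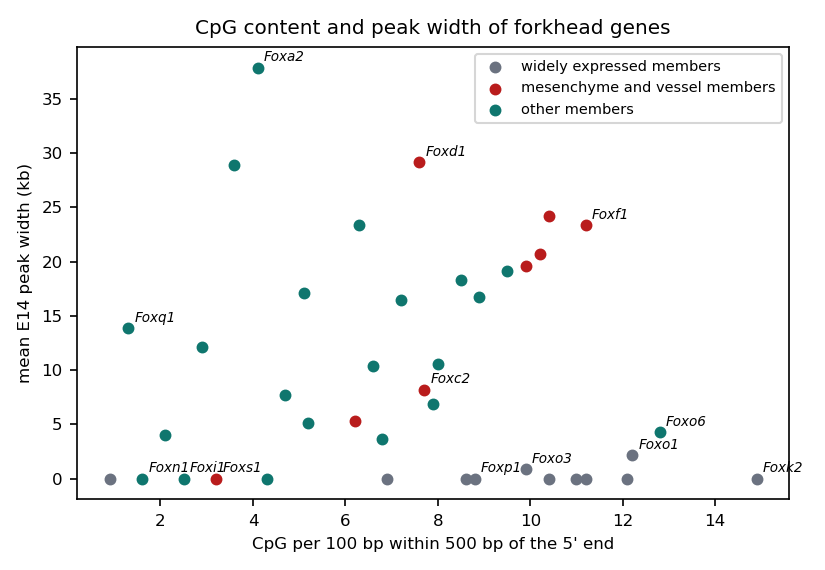
CpGs per 100 bp within 500 bp of the 5′ end (horizontal axis) and mean E14 peak width in kb (vertical axis) for 40 of the 41 forkhead genes, with 1 point per gene, coloured by role. Widely expressed members lie at or near a width of 0 across the range of CpG content, up to 14.9 at Foxk2. Of all autosomal protein-coding genes, 73.4% had no peak in any list. In contrast, Foxq1 has wide peaks with 1.3 CpGs per 100 bp. The roles are background knowledge set with earlier results of these data known.

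The genes that signal to forkhead proteins or bind with them were examined as a list of 19. Of these, 6 had a peak in both E14 libraries, 5 in both E17 libraries and 12 in none, beside 20.2%, 12.7% and 73.4% of all genes. The counts are small and were not set apart from that background. In the hedgehog pathway, upstream of Foxf1, the ligands Shh and Ihh, the receptor Ptch1 and the effector Gli1 had a peak in all 4 lists, and Gli2, Gli3 and Smo had none. Gli1 peaks were 2903 and 1500 bp wide at E14 and 988 and 974 bp at E17. Nodal, the ligand that acts through Foxh1, was marked in all 4 lists, and Smad2, Smad3 and Smad4 were not.

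Of 8 genes of the insulin pathway that controls FoxO proteins, 6 had no peak in any list, among them Akt1, Insr and Igf1r. Sgk1, a kinase that phosphorylates FoxO proteins, had peaks of 2308 and 1535 bp at E14 and none at E17. The list holds Pdk1, which in the mouse names a pyruvate dehydrogenase kinase, and it had no peak.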

How the data were processed

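H3K27me3 ChIP-seq of wild-type dermal fibroblasts was analysed in 4 libraries, grouped by the E14 and E17 labels. Per the labels, reads were placed on mm10, and the submitters' processing notes name Bowtie2 2.3.5.1, SAMtools 1.9, MACS2 2.2.7.1 and deepTools 3.5.1. The authors called broad peaks per library with MACS2 at a q-value of 0.01, without pooling replicates. The control used for the call and the read filters are not given in the sources used here. The deposited lists give, for every peak, the authors' fold enrichment over local background (a ratio) and their −log10 p-value and −log10 q-value. Without reads, depth and the error of a single peak are unknown. The labels and the paper differ on culture medium, shearing, library kit and sequencer, so the library chemistry is uncertain. The paper mentions subsampling of some later-stage samples, and whether that includes these libraries is unclear. The input library shared by the stages was not analysed here.

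Genes came from GENCODE vM21 (GRCm38). A window of 3000 bp either side of any start site was used. Peak width is the whole length of the peaks that touch the window, and covered length is the part within it. The percentile is the rank of the highest fold enrichment within its own list. Members and lists were chosen with earlier results of these data known. Values per library were given for the members with the largest mean E14 covered length (windows of genes with several start sites are longer), the largest and smallest decreases in it, those marked in part and those chosen for known roles in mesenchyme, vessels, skin or hair, and more were added after their values were seen. Stages were compared by an exact permutation test over libraries, two-sided, with 3 splits. Alternatives were −log10 q-values of at least 3 and 5, widths of at least 1000 bp, windows of 1000 and 10000 bp, the 5′ end of the gene alone, lists of equal number, the percentile of the −log10 q-value, a replicate block and leaving out each library. The whole width of the peaks, alone and with lists of equal number, and the percentile ranked anew within lists of equal number were added after seeing the data. Scripts ran under Python 3.11.15 with scipy 1.17.1, pandas 2.3.3, numpy 2.4.6 and matplotlib 3.10.9 and were tested on simulated data. Sequences are from the RefSeq genome of GRCm38, and 26 of the 41 members have a promoter in the RefSeq table used for the motif. The values of 1 member and of 1 pathway gene are not reported here, and both are included in the counts and medians.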

Additional observations from a re-analysis of the deposited data

How the results depend on the processing

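No result changed direction. The count of members with a peak in both E14 libraries and neither E17 library, 0 as reported, was 1 with −log10 q-values of at least 3 and of at least 5, with widths of at least 1000 bp and with lists of equal number, and 0 to 2 when 1 library was left out. The count of members with a shorter covered length in both E17 libraries, 15 as reported, was 9 with a window of 1000 bp, 26 with a window of 10000 bp and 26 for the whole width of the peaks, alone or with lists of equal number. A 1000 bp window has less room for a change in length by its construction. Leaving out 1 library gave 15 to 21. Left-out libraries also gave -2.5 to -0.5 for the number of marked members and -19.0% to -12.1% for the covered length. For the percentile they gave -2.99 to -1.4. They gave 27 to 28 members with a peak in both E14 libraries and 25 to 27 in both E17 libraries. With −log10 q-values of at least 5 these counts were 26 and 22, and the number of marked members differed by -3.0. With a window of 10000 bp the counts were 29 and 26. With a replicate block, the difference in the number of members was -1.5, in covered length -15.5% and in percentile -2.31, each with an exact p of 0.5, the smallest that 2 pairs allow. The numbers are shared by the labels only, so nothing shows that they pair the libraries. The lists set the limits. Depth is unknown, a missing peak can lie just under the threshold, and with 2 libraries per stage the exact p cannot go below 0.333.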
